A study of Mus musculus with 10 samples.

Results

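The genes described here are the natriuretic peptide genes Nppa and Nppb, the receptor genes Npr1, Npr2 and Npr3, and Corin, which encodes the protease that activates the peptide hormone of the atria. They were chosen by name, as every probe set annotated to 1 of these symbols alone, which gave 8 probe sets for 6 genes, out of 22626 probe sets and 12393 named genes. Npr3 had 3 probe sets and each of the others had 1. Ventricular RNA of mice was hybridised to Affymetrix 3′ expression arrays, and the values are RMA intensities on a linear scale. There were 3 arrays of nontransgenic control hearts (NTG), 3 of the alpha-TM175 genotype and 4 of the alpha-TM180 genotype, both named for alpha-tropomyosin, a thin filament protein of the sarcomere. The study set a mild beside a severe form of early cardiac hypertrophy. By general knowledge of the 2 models, alpha-TM175 is the mild form and alpha-TM180 the severe one. Array 3 of NTG, array 3 of alpha-TM175 and array 4 of alpha-TM180 each carried a pool of 20 hearts, and the other 7 arrays carried 1 heart each. No treatment was given. Strain, age, sex and the promoter of the transgenes are not given in the sources used here.

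Nppa and Nppb encode the precursors of the A-type and B-type natriuretic peptides, which heart muscle cells release when the wall is stretched. In the adult the atria are the main source of the A-type peptide, whereas the ventricle expresses it strongly before birth and again under overload, so that it serves as a textbook marker of hypertrophy. Npr1 encodes the guanylyl cyclase receptor of both peptides, Npr2 the related receptor of the C-type peptide, and Npr3 a receptor without a cyclase domain that takes peptides up for breakdown. Signalling through Npr1 and Npr2 raises cGMP, which lowers vessel tone and restrains growth and fibrosis of the heart.

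Nppb and Nppa lie beside each other on mouse chromosome 4, with 13516 bases between them in the RefSeq annotation of GRCm38.p6. The 250 bases before the start site of each are shown because these are the 2 members with the widest range between arrays. They come from RefSeq, on the plus strand, and lie at chr4:148000472-148000721 for Nppa and at chr4:147985650-147985899 for Nppb. Capitals mark matches, on either strand, to the GATA factor motifs TGATAA and AGATAA, the NK homeobox motif AAGTG, the T-box motif AGGTGT and the M-CAT motif CATTCC. The CArG box was also searched and had no match in either window.
Nppa: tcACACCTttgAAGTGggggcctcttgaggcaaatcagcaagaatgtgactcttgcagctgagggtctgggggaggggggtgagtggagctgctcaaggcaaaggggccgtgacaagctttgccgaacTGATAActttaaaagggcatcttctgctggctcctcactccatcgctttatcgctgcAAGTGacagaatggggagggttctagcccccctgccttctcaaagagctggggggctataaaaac
Nppb: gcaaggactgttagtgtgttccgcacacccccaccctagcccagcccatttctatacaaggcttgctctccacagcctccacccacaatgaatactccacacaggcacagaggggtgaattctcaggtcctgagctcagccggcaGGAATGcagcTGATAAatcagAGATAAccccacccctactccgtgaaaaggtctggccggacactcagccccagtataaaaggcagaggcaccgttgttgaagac

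The Nppa window held 1 GATA factor match, starting 122 bases before the start site, 2 NK homeobox matches at 239 and 65 bases, and 1 T-box match at 248 bases. The Nppb window held 2 GATA factor matches, starting 95 and 84 bases before the start site, and 1 M-CAT match at 105 bases. Matches to the GATA motifs occurred in 16.6% of the 32851 promoters of this length in the table, to the NK motif in 40.7%, to the T-box motif in 11.8%, to the M-CAT motif in 12.6% and to the CArG box in 1.47%. A match of letters is a description of the window and not a measured binding site. The start site used for Nppb lies within the annotated span of the gene, since other transcripts begin earlier, and the other 4 members' windows shared no GATA factor match with these.

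Array medians lay between 66.6 and 71.0. Cardiomyocyte markers were bright in all arrays, with 8 probe sets summing to 51940 to 56542 in NTG, 50166 to 51794 in alpha-TM175 and 47820 to 53171 in alpha-TM180. The level of the other marker on that list, Actc1, was not settled. The alpha-TM175 sums lay wholly below those of NTG. With Actc1 counted, 4 of the 9 markers lay wholly below NTG in alpha-TM175, as did 8.11% of all probe sets. In alpha-TM180 it was 1 of 9, against 4.19% of all probe sets. The log2 difference from NTG was below 0 for 7 and 8 of the 9, and none was called by limma. Array 1 of alpha-TM175 stood apart in sex-linked transcripts, with Xist, an RNA made from the silenced X, at 988 against 99.5 to 136 in the other single hearts, and the Y-linked Eif2s3y at 7.23 against 44.7 to 60.8. That heart also held the lowest values of several members, so differences of alpha-TM175 that moved by over 1.5 times without it are also given without it. The pools differed too, with Xist at 149 in NTG, 414 in alpha-TM175 and 394 in alpha-TM180, and Eif2s3y at 46.7, 38.3 and 35.3. The part of sex in the differences between single hearts or between pools was not tested. The number of arrays limits the precision of every value, p-values measure the spread between these arrays, and it is not given whether the pools included hearts that were also measured alone.

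In the limma model with 1 mean per genotype, 1 of the 8 member probe sets was called in alpha-TM180 against NTG at an adjusted p under 0.05, and it was higher. The background was 0.504% of all probe sets called, 0.371% called higher. At an unadjusted p under 0.05 there were 5 of 8 (background 9.34%). None of the 8 was called in alpha-TM175 against NTG (background 0.00884%), where 3 had an unadjusted p under 0.05 (background 13.0%). Between the lines none was called (background 0.0%), and 3 had an unadjusted p under 0.05 (background 13.3%). With extract type, single heart or pool, in the model, 0, 1 and 0 of the 8 were called in alpha-TM175, in alpha-TM180 and between the lines, against backgrounds of 0.862%, 2.0% and 0.0265%. The arrays of alpha-TM180 lay wholly above those of NTG for 4 probe sets (background 5.98%) and wholly below for 1 (background 4.19%, or 10.2% for either direction). Those of alpha-TM175 did so for 1 above (background 8.42%) and 1 below (background 8.11%, or 16.5% for either direction). Between the lines 2 probe sets lay wholly higher in alpha-TM180 (background 6.22%) and 0 wholly lower (background 7.37%), with 13.6% of all probe sets apart in either direction. The median log2 difference of the 8 probe sets was 0.25 in alpha-TM180 and 0.11 in alpha-TM175, beside -0.01 and 0.04 over all probe sets. The 2 comparisons share the NTG arrays.

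**Figure D1:**
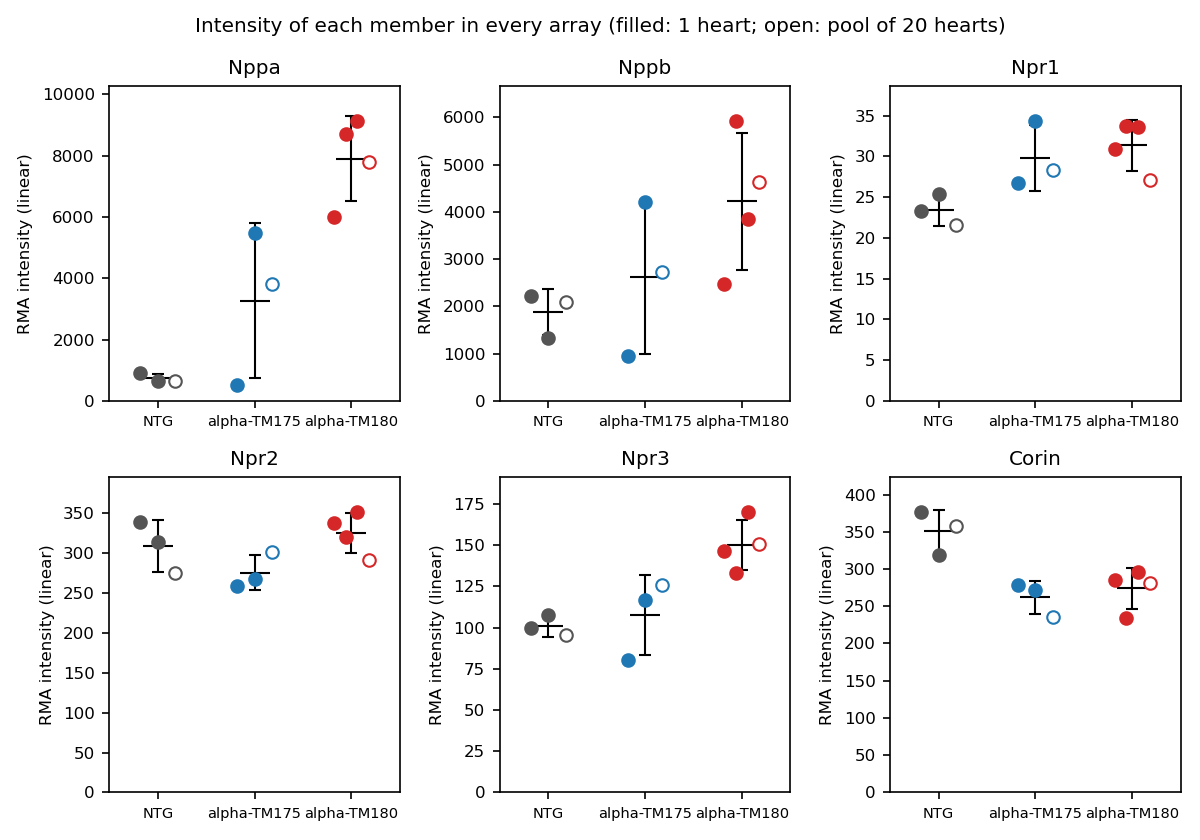
RMA intensity (linear axis from 0) of the brightest probe set of each gene in the 3 NTG, 3 alpha-TM175 and 4 alpha-TM180 arrays; filled points are single hearts, open points are pools of 20 hearts, and the bar is the mean with its SD. Nppa runs from 635 to 906 in NTG and from 5991 to 9127 in alpha-TM180, while the alpha-TM175 arrays spread from 521 to 5478.

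Nppa, the A-type peptide gene, rose in alpha-TM180 and was divided among the alpha-TM175 arrays. Its intensities, in the order of the array numbers, were 906, 635 and 655 in NTG, 521, 5478 and 3822 in alpha-TM175, and 5991, 8703, 9127 and 7788 in alpha-TM180. Every alpha-TM180 array was above every array of the other groups, and alpha-TM175 array 1 was the lowest of all 10. The means were 732 ± 151 (SD, n = 3), 3274 ± 2523 (SD, n = 3) and 7902 ± 1391 (SD, n = 4). The highest array exceeded the lowest 1.43-fold within NTG, 10.5-fold within alpha-TM175 and 1.52-fold within alpha-TM180.

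The rise of Nppa in alpha-TM180 over NTG was 10.8-fold (95% interval 4.15 to 28.1, limma adjusted p = 0.0484). The single hearts alone gave 10.3-fold and the pools alone 11.9-fold. With extract type in the model the adjusted p was 0.0116. The call was close to the threshold, and each array of NTG and of alpha-TM180 decided it. Without NTG arrays 1, 2 and 3 in turn the adjusted p was 0.157, 0.136 and 0.167, and without alpha-TM180 arrays 1 to 4 it was 0.0663, 0.146, 0.122 and 0.0958, while the log2 difference stayed between 3.34 and 3.60. It was also lost in the single hearts alone (adjusted p = 0.149). Because the spread was estimated over all genotypes, leaving out alpha-TM175 array 1 gave an adjusted p of 0.000212.

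In alpha-TM175 the Nppa difference from NTG was 3.07-fold (1.10 to 8.54) and did not pass (limma adjusted p = 0.35). The single hearts alone gave 2.23-fold and the pools alone 5.84-fold. Without alpha-TM175 array 1 the log2 difference was 2.66 (adjusted p = 0.00588). This array held the lowest value and was singled out after seeing the data, so that p is given as a description.

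Nppb, the B-type peptide gene, had means in the order NTG, alpha-TM175, alpha-TM180, with overlap between the lines. It read 2210, 1328 and 2099 in NTG, 952, 4203 and 2737 in alpha-TM175, and 2474, 5921, 3856 and 4625 in alpha-TM180. All 4 alpha-TM180 arrays lay above all NTG arrays, by a narrow margin for array 1, and alpha-TM175 array 1 was again the lowest of the 10. The means were 1879 ± 480 (SD, n = 3), 2631 ± 1628 (SD, n = 3) and 4219 ± 1442 (SD, n = 4). The difference from NTG was 2.19-fold in alpha-TM180 (1.10 to 4.36, limma adjusted p = 0.433) and 1.21-fold in alpha-TM175 (0.581 to 2.53, adjusted p = 0.827), and neither passed. In alpha-TM180 the single hearts gave 2.24-fold and the pools 2.20-fold, and in alpha-TM175 they gave 1.17-fold and 1.30-fold. Without alpha-TM175 array 2 the log2 difference in alpha-TM175 was -0.18 and without array 1 it was 0.89.

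**Figure D2:**
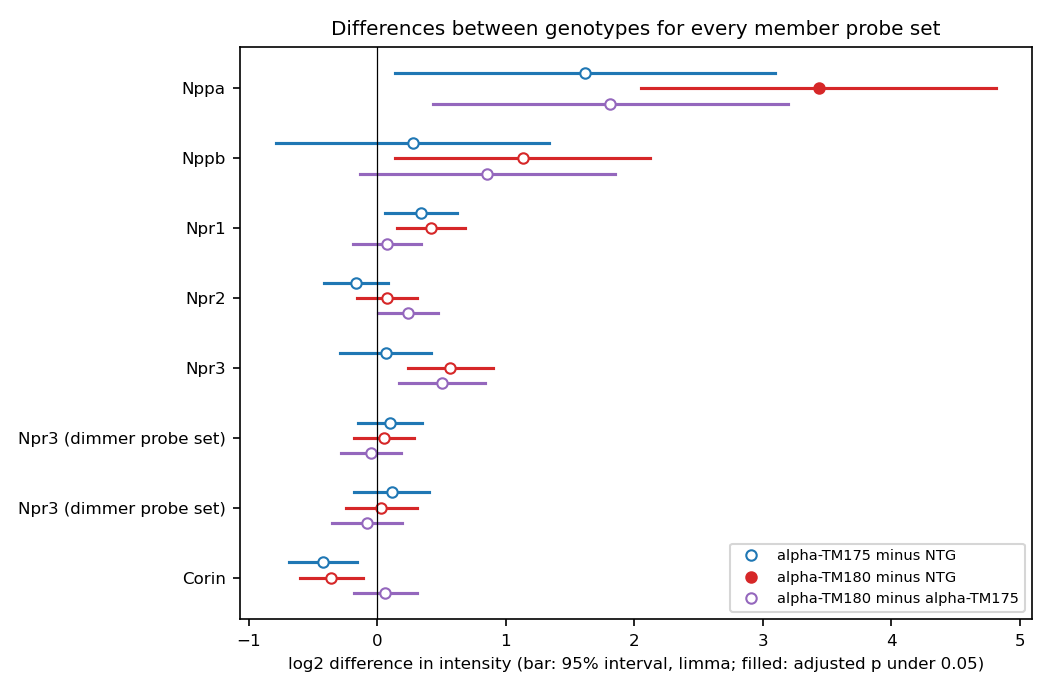
Log2 differences in intensity (horizontal axis) of all 8 member probe sets for the 3 comparisons, each point with its 95% interval from limma; a filled point passed at an adjusted p under 0.05. The only filled point is Nppa in alpha-TM180 against NTG, at 3.43, and the dimmer Npr3 probe sets lie near 0 in all comparisons.

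The genes beside the peptide genes were measured to describe the locus. Of the 5 protein-coding genes on each side, 8 of 10 had a probe set, namely Miip, Fv1, Mfn2, Plod1 and 2510039O18Rik before Nppb and Clcn6, Agtrap and Mad2l2 after Nppa. By limma none was called in any of the 3 comparisons, and 1 of 8 had an unadjusted p under 0.05 in each. The backgrounds were 13.0% in alpha-TM175, 9.34% in alpha-TM180 and 13.3% between the lines. Their log2 differences from NTG ran from -0.31 to 0.13 in alpha-TM175 and from -0.46 to 0.19 in alpha-TM180, beside 1.62 and 3.43 for Nppa and 0.28 and 1.13 for Nppb. Clcn6, a chloride and proton exchanger gene and the nearest neighbour of Nppa, was at 0.13 and -0.0021. Mfn2, which encodes a protein of mitochondrial fusion, was at -0.25 and 0.07. The alpha-TM175 arrays of Mfn2 and of Mad2l2 (-0.28) lay wholly below NTG, 2 of 8 against a background of 8.11%. In alpha-TM180 0 of 8 lay wholly above or below NTG.

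Npr1, the cyclase receptor of both heart peptides, was dim, with only 23.9% of probe sets dimmer, and its lowest transgenic array was above its highest NTG array. It read 23.3, 25.4 and 21.5 in NTG, 26.8, 34.3 and 28.3 in alpha-TM175, and 30.9, 33.8, 33.6 and 27.1 in alpha-TM180. The gap between the groups was small, from 25.4 in NTG array 2 to 26.8 in alpha-TM175 array 1. The difference from NTG was 1.27-fold in alpha-TM175 (1.04 to 1.54, limma adjusted p = 0.31) and 1.34-fold in alpha-TM180 (1.11 to 1.60, adjusted p = 0.202), and neither passed. Arrays of both lines lay above all NTG arrays for 1.78% of all probe sets. Single hearts and pools gave 1.25-fold and 1.31-fold in alpha-TM175 and 1.35-fold and 1.26-fold in alpha-TM180.

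Npr2, the receptor of the C-type peptide, differed little. Its values were 340, 314 and 275 in NTG, 259, 267 and 301 in alpha-TM175, and 338, 320, 351 and 292 in alpha-TM180, and all groups overlapped. It was at 0.893-fold in alpha-TM175 (0.750 to 1.06, limma adjusted p = 0.553) and at 1.05-fold in alpha-TM180 (0.895 to 1.24, adjusted p = 0.977). In alpha-TM175 the single hearts gave 0.807-fold and the pools 1.09-fold, and in alpha-TM180 they gave 1.03-fold and 1.06-fold.

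Npr3, the clearance receptor, was separated in alpha-TM180 by its brightest probe set only. That probe set read 99.6, 108 and 95.4 in NTG, 80.1, 117 and 126 in alpha-TM175, and 147, 133, 170 and 151 in alpha-TM180. The 4 alpha-TM180 arrays were the 4 brightest, and alpha-TM175 array 1 was the dimmest of the 10. The difference from NTG was 1.48-fold in alpha-TM180 (1.18 to 1.87, limma adjusted p = 0.167) and 1.05-fold in alpha-TM175 (0.818 to 1.34, adjusted p = 0.88), and neither passed. Single hearts and pools gave 1.44-fold and 1.58-fold in alpha-TM180, and 0.933-fold and 1.32-fold in alpha-TM175. Without alpha-TM175 array 1 the log2 difference in alpha-TM175 was 0.27, against 0.07 with it. The other 2 Npr3 probe sets, at 20.5 to 27.1 and at 12.3 to 17.0 over all arrays, were at 1.04-fold and 1.02-fold in alpha-TM180, and which transcripts each detects was not tested.

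With extract type in the model and alpha-TM175 array 1 left out, an alternative chosen after seeing the data, Npr1 and Npr3 passed in alpha-TM180. The adjusted p by limma was 0.0354 for Npr1 (log2 difference 0.40) and 0.0161 for Npr3 (0.57), so that with Nppa 3 of 8 were called, and 2.14% of all probe sets were called in that fit. Npr2, Nppb and Corin did not pass there (adjusted p = 0.840, 0.0655 and 0.141). In alpha-TM175 only Nppa passed, 1 of 8 against a background of 0.0619%. With all 10 arrays the log2 differences of Npr1 and Npr3 in alpha-TM180 were 0.42 and 0.57.

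Corin, the protease of heart muscle cells that cuts the precursor of the A-type peptide to its active form, was the only member that was dimmer in both lines. It read 376, 319 and 357 in NTG, 278, 272 and 236 in alpha-TM175, and 286, 234, 296 and 281 in alpha-TM180. Every transgenic array was below every NTG array, including alpha-TM175 array 1, and for 2.21% of all probe sets both lines were below in this way. It was 1.34-fold lower in alpha-TM175 (1.12 to 1.61, limma adjusted p = 0.208) and 1.28-fold lower in alpha-TM180 (1.08 to 1.52, adjusted p = 0.257), and neither passed. The pools gave 1.52-fold and 1.27-fold lower, and the single hearts 1.26-fold and 1.28-fold lower. Of the 9 cardiomyocyte markers, 4 in alpha-TM175 (background 8.11%) and 1 in alpha-TM180 (background 4.19%) also lay wholly below NTG. The part of muscle cell content in the Corin values was not tested.

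Between the lines no member passed. Nppa was 3.52-fold higher in alpha-TM180 than in alpha-TM175 (1.35 to 9.16, limma adjusted p = 0.324), and 4.62-fold in single hearts against 2.04-fold in pools. Without alpha-TM175 array 1 its log2 difference between the lines was 0.77, against 1.81 with all arrays. Npr3 was 1.42-fold higher (1.13 to 1.79, adjusted p = 0.306), with no overlap between the lines, as for Nppa, and its log2 difference was 0.30 without alpha-TM175 array 1 against 0.50 with it. For Nppb these were 0.25 and 0.86, for Npr1 0.0025 and 0.08, and for Corin 0.11 and 0.06. With all arrays Nppb was at 1.81-fold (0.910 to 3.60, adjusted p = 0.416), Npr2 at 1.18-fold (1.00 to 1.39, adjusted p = 0.374), Npr1 at 1.05-fold (0.878 to 1.26, adjusted p = 0.771) and Corin at 1.05-fold (0.882 to 1.24, adjusted p = 0.795).

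**Figure D3:**
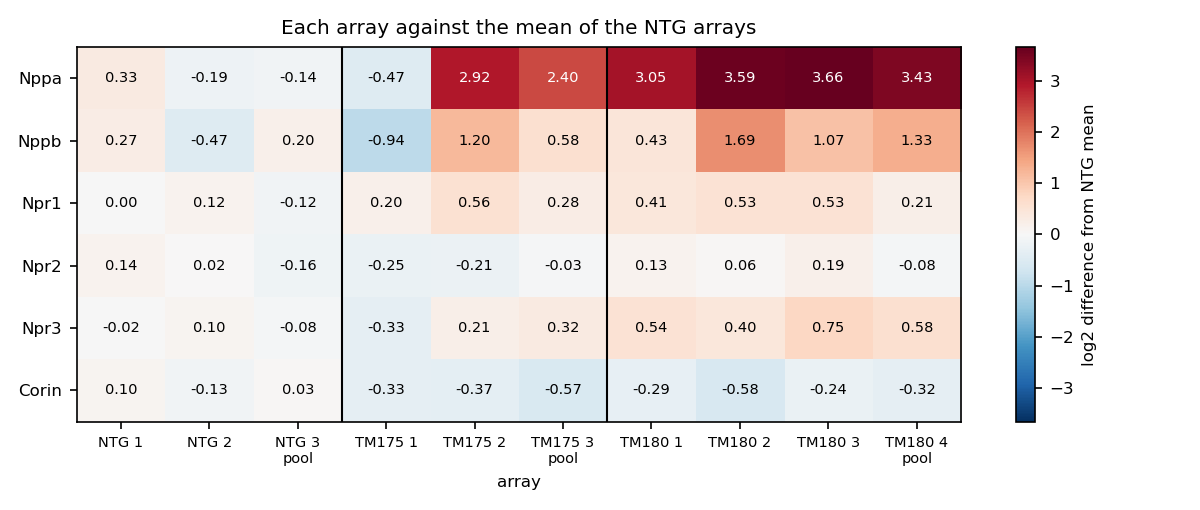
Log2 difference of each array (columns) from the mean of the 3 NTG arrays for the brightest probe set of each gene (rows), with the value written in each cell; black lines separate the genotypes. The alpha-TM175 array 1 column is negative for Nppa (-0.47), Nppb (-0.94) and Npr3 (-0.33), where the remaining transgenic arrays are positive.

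Set against the NTG mean array by array, the peptide genes spread over wider log2 ranges than the receptor genes. In alpha-TM175 array 2 Nppa was higher by 2.92 on the log2 scale and Nppb by 1.20, whereas Npr1 was higher by 0.56 and Npr3 by 0.21. In alpha-TM180 array 3, the brightest for Nppa at 3.66, Nppb was at 1.07, Npr1 at 0.53 and Npr3 at 0.75, the highest Npr3 value. Nppb was highest in alpha-TM180 array 2, at 1.69, where Npr3 was at 0.40 and Corin at its lowest, -0.58. The heart of alpha-TM175 array 1 held the lowest value of the 10 arrays for Nppa, Nppb, Npr2 and Npr3, and at the same time Corin at -0.33 and Npr1 at 0.20, inside the range of the other transgenic arrays for Corin and just under it for Npr1.

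How far a member tracked Nppa among arrays of the same genotype was described by the correlation of log2 deviations from the genotype mean over the 10 arrays. Exact permutation of arrays within genotypes gave two-sided p-values, adjusted over the 5 members. Of the 10 arrays 3 were pools, which the permutation exchanged with single hearts. These r thus mix differences between hearts with those between pool and single heart. Nppb followed Nppa with r = 0.887 (exact permutation p = 0.0127, adjusted p = 0.0637) and rho = 0.867 (p = 0.0162, adjusted p = 0.081), which did not pass after adjustment. Among the receptors Npr3 had r = 0.818 (exact permutation p = 0.189, adjusted p = 0.472; rho = 0.661, p = 0.138, adjusted p = 0.344). Npr1 had r = 0.530 (exact permutation p = 0.336, adjusted p = 0.559; rho = 0.418, p = 0.370, adjusted p = 0.463). For Npr2 r was 0.331 (exact permutation p = 0.459, adjusted p = 0.574; rho = 0.406, p = 0.299, adjusted p = 0.463). Corin gave r = -0.217 (exact permutation p = 0.715, adjusted p = 0.715; rho = -0.05, p = 0.900, adjusted p = 0.900).

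The relation of Npr3 to Nppa rested on alpha-TM175 array 1. Its r was -0.07 without that array, 0.83 without alpha-TM175 array 2 and 0.79 without array 3. Without alpha-TM175 arrays 1 and 2, the 2 farthest from the median Nppa deviation, r was 0.08 for Npr3 and 0.727 for Nppb. That leaves only array 3 of alpha-TM175, which then equals its own genotype mean, so these r rest on NTG and alpha-TM180. Without array 1 alone r was 0.771 for Nppb. The r of Npr1 was 0.865 with extract type removed, 0.786 after renewed quantile normalization and 0.236 without alpha-TM175 array 2, and none of these passed after adjustment (adjusted exact permutation p = 0.130, 0.139 and 0.532). In the 8 arrays without alpha-TM175 arrays 1 and 2, r was 0.215 for Npr1, 0.358 for Npr2 and 0.102 for Corin. In the 7 single hearts, where the smallest exact permutation p is 0.0417, r was 0.919 for Nppb, 0.882 for Npr1, 0.340 for Npr2, 0.800 for Npr3 and -0.04 for Corin. None passed, with exact permutation p of 0.125, 0.333, 0.25, 0.542 and 0.917 in that order and adjusted p of at least 0.556. With 2 such hearts each in NTG and alpha-TM175, the deviations within each pair are mirror images. The widest Nppa gap within a genotype there was between alpha-TM175 arrays 1 and 2. The 3 pools, 1 per genotype, allow no r of this kind. For Nppb the adjusted p was 0.0231 without alpha-TM180 array 3 and at least 0.0637 with it.

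**Figure D4:**
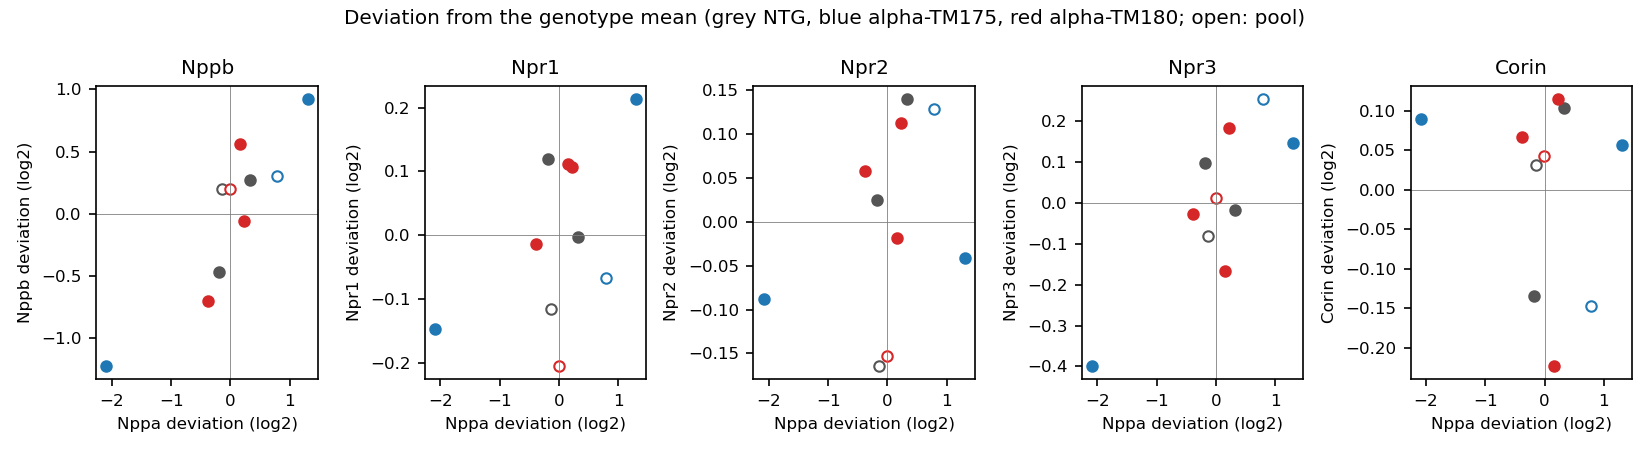
Deviation of each array from its genotype mean on the log2 scale, Nppa on the horizontal axis and 1 other member per panel on the vertical axis (10 arrays; open points are pools; vertical scales differ between panels). Nppb rises with Nppa (r = 0.887), while for Npr3 the alpha-TM175 array 1 point at the lower left lies far from the others.

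The rest of the pathway was described with a list of 37 genes, of which 35 were measured. It held other ligands, enzymes of processing and breakdown, cGMP effectors and phosphodiesterases, the inhibitory G proteins that Npr3 couples to, transcription factors known to regulate the peptide genes, and granule proteins. By limma none of the 35 brightest probe sets was called in any comparison. In alpha-TM175, in alpha-TM180 and between the lines 3, 2 and 1 of 35 had an unadjusted p under 0.05. The backgrounds were 13.0%, 9.34% and 13.3%. Their median log2 difference from NTG was -0.0028 in alpha-TM175 and -0.05 in alpha-TM180, with 16 and 14 of 35 above 0. Nppc, the C-type peptide gene, was at -0.04 and -0.17, and the convertase genes Furin at -0.09 and -0.02 and Pcsk6 at -0.02 and -0.11.

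The largest differences of the list were those of Rgs2, a regulator of G-protein signalling that cGMP-dependent kinase is known to act on. Its second, dimmer probe set fell in alpha-TM180 by 1.37 on the log2 scale (limma adjusted p = 0.0184). It averaged 197 ± 71.9 in NTG (SD, n = 3), 88.2 ± 4.7 in alpha-TM175 (SD, n = 3) and 73.8 ± 11.6 in alpha-TM180 (SD, n = 4). In alpha-TM175 it was also below NTG but was not called. In NTG it read 152, 159 and 280, the last being the pool. The brightest did not pass, at log2 differences of -0.92 in alpha-TM175 (adjusted p = 0.43) and -1.29 in alpha-TM180 (adjusted p = 0.338). It read 186, 185 and 599 in NTG, so that the NTG pool was far above the single hearts, and with extract type in the model it passed in both lines (adjusted p = 0.0333 and 0.00253).

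The other smallest p-values of the list, none of which passed, were spread over its groups. Chga, a chromogranin of secretory granules, was at 0.41 in alpha-TM175 (limma adjusted p = 0.207). The GATA factor gene Gata4 was at -0.36 there (limma adjusted p = 0.314) and at -0.08 in alpha-TM180. In alpha-TM175 its 3 arrays lay below all NTG arrays, as did those of Nkx2-5 (-0.49) and Myocd (-0.55). These were 3 of the 35 measured list genes, near the background of 8.11%. In alpha-TM180 0 of the 11 transcription factor genes lay wholly below NTG. Gnai3, an inhibitory G protein gene, was at 0.38 in alpha-TM180 (adjusted p = 0.491), and Pam, the amidating enzyme of atrial granules, at 0.28 in alpha-TM175 (adjusted p = 0.381). Of the 11 transcription factor genes, 8 lay below 0 in alpha-TM175 and 9 in alpha-TM180. Their medians were -0.17 and -0.10, beside 0.04 and -0.01 over all probe sets.

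**Figure D5:**
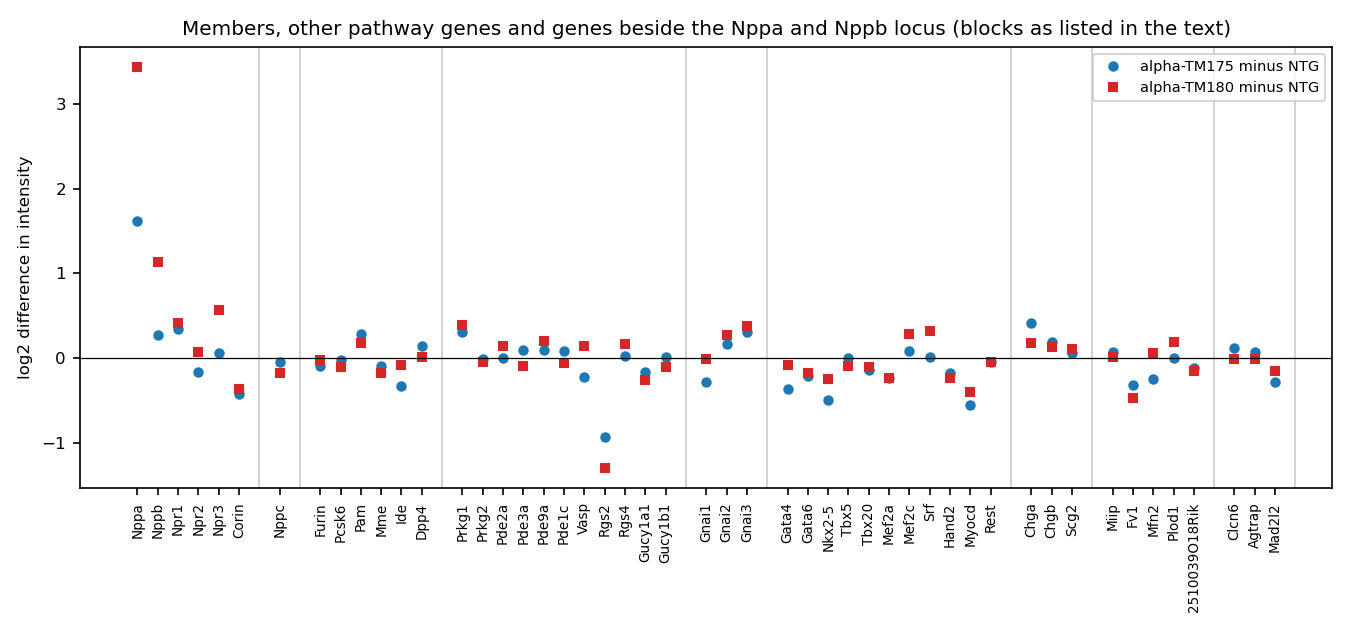
Log2 difference from NTG (vertical axis) in alpha-TM175 (circles) and alpha-TM180 (squares) for the members, then for the other pathway genes by group (other peptide, processing and breakdown, cGMP targets and breakdown, Npr3 coupling, regulators, granule genes) and the genes before Nppb and after Nppa. Nppa at 1.62 and 3.43 lies farthest above 0 and Rgs2 at -0.92 and -1.29 farthest below.

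Since atrial muscle is rich in the A-type peptide, atrial markers were measured beside it. Of the 8 markers, all measured, none was called by limma in any comparison. Their summed intensity was 603 to 805 in NTG, 651 to 740 in alpha-TM175 and 575 to 1104 in alpha-TM180. In NTG this sum gave most weight to Stard10 and Myl4, at means of 207 and 150. Sln, Myl4 and Dkk3 had 2 probe sets each, of which the brighter was used. The atrial light chain gene Myl7 read 151, 39.8 and 37.2 in NTG, 46.3, 39.3 and 151 in alpha-TM175, and 89.3, 34.2, 455 and 337 in alpha-TM180. The highest Nppa value, 9127 in alpha-TM180 array 3, came with the highest Myl7 and the highest atrial sum of the 10 arrays. That sum, 1104, included the Myl7 value of 455 and is not a separate sign. The lowest Myl7, in alpha-TM180 array 2, came with Nppa at 8703. In alpha-TM180, 3 of the 8 markers lay above 0 and 5 below. Dkk3 lay wholly above NTG (background 5.98%) and Kcnj3, at -0.34, wholly below (background 4.19%). The part of atrial tissue in the Nppa values was not tested. Sarcolipin (Sln) ran from 58.1 to 79.3 over all arrays, and Dkk3 was at 0.76 in alpha-TM180 (adjusted p = 0.0780, or 0.0197 with extract type in the model).

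Receptor genes are also expressed outside muscle cells, so markers of other cell types are given beside them. The 8 endothelial markers summed to 3010 to 3294 in NTG, 2912 to 4103 in alpha-TM175 and 3118 to 3911 in alpha-TM180, and none was called by limma. The 8 fibroblast markers summed to 4360 to 6780, 5580 to 9215 and 7298 to 11100, so that the sum in alpha-TM180 lay wholly above NTG. The sum gives most weight to bright genes such as Dcn and Col3a1. Taken singly, 4 of the 8 lay wholly above NTG in alpha-TM180 (background 5.98%), whereas Pdgfra, Tcf21, Dcn and Ddr2 overlapped it. By their brightest probe sets 1 of the 8, the collagen gene Col1a1, was called in alpha-TM180 (background 0.504%). With extract type in the model it was 4 of 8 (background 2.0%). A dimmer probe set of Col3a1, another collagen gene, was also called in alpha-TM180 without extract type in the model. The 5 smooth muscle markers summed to 1703 to 1975, 1740 to 2164 and 1680 to 2700, and none was called. The part of these cells in the Npr1 and Npr3 values was not tested, and in bulk tissue fewer cells of a type cannot be told apart from less RNA per cell.

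The genes most like each member over the 10 arrays were taken from 7327 genes above the median level, by Pearson r of log2 intensity, as a description in which the arrays share their normalization and the split into pools and single hearts. For Nppa they were Serf2 (r = 0.984), by a probe set whose design allows cross-hybridisation, Gpx3, the extracellular glutathione peroxidase gene (0.973), and Prg4, the lubricin gene (0.954). Gpx3 averaged 1302 ± 104 in NTG (SD, n = 3), 1570 ± 400 in alpha-TM175 (SD, n = 3) and 2344 ± 157 in alpha-TM180 (SD, n = 4). Running the other way were Hopx, a homeodomain protein gene of heart muscle (-0.935), Upk3b, a uroplakin gene of mesothelium (-0.891), and Rreb1 (-0.879). Hopx averaged 3928 ± 325, 3161 ± 632 and 2640 ± 281.

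For Nppb the nearest were Ier5, an immediate early gene (r = 0.984), the skeletal alpha-actin gene Acta1 (0.964) and Rcan1, an inhibitor of calcineurin whose transcript responds to it (0.954). Rcan1 averaged 307 ± 37.7 in NTG (SD, n = 3), 379 ± 196 in alpha-TM175 (SD, n = 3) and 650 ± 286 in alpha-TM180 (SD, n = 4). For Npr1 they were Myo9b (0.968), the collagen gene Col16a1 (0.938) and Rhou (0.934), and for Npr2 the macrophage gene Cd68 (0.937), Psmc3 (0.930) and Cdk5rap3 (0.924). For Npr3 they were Arfgap3 (0.966), the asparaginyl-tRNA synthetase gene Nars (0.945) and again Prg4 (0.929). For Corin they were the sulfite oxidase gene Suox (0.982), the mitochondrial RNA gene Fastkd1 (0.971) and the nucleotidase gene Nt5c3 (0.959). All these genes were picked as the extremes of 7327 over 10 arrays, so a high r follows in part from the picking. Even Npr2, which differed little between genotypes, reached 0.937, and no shared regulation or cell type was tested.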

How the data were processed

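The authors deposited 1 intensity per probe set and array, on a linear scale. RMA is the tool that the submitters' processing notes name, without a version. Values of 1000 or more carry a point before their last 3 digits as a digit mark, which was undone. A value with 3 decimals was read as such if it ended in 0, had several digits before the point or was below 5, since no value with fewer decimals was below 5.23; any other such value took the reading nearer to its probe set's remaining arrays. This changed 7842 of 226900 values, among them 6 of Nppa and 9 of Nppb, and left the level of 227 probe sets unsettled, none of a member. The 64 control probe sets were left out.

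Log2 intensities were fitted with limma 3.58.1 in R 4.3.3 over 22626 probe sets and 10 arrays, and p-values, two-sided, were adjusted by Benjamini-Hochberg over all of them. Fold changes are ratios of geometric means, means ± SD are linear. Nothing says that same-numbered arrays are paired, and their deviations correlated at -0.533 to 0.692. Python 3.11.15 served for the other steps, and both repair and fit were tested on simulated data. Probe sets were named from the platform annotation, updated through RefSeq. The members and lists were chosen with earlier results of these data known. Named were the members, their 3 most alike genes (for Nppa also the 3 least alike), list genes that were called or had the 5 smallest p-values, and the neighbours of the locus. Apart from marker genes, Nppc, Furin and Pcsk6 were named outside this rule. So were Nkx2-5 and Myocd, whose alpha-TM175 arrays lay wholly below NTG. Alternatives were extract type as a covariate, single hearts only, renewed quantile normalization, a replicate block, a filter on dim or unsettled probe sets and leaving out each array.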

Additional observations from a re-analysis of the deposited data

Results flagged for a closer look

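The alpha-TM175 difference of Npr2 from NTG had opposite signs in single hearts and pools, with both single hearts below both controls (log2 difference -0.31) and the pool above the control pool (0.13). The gap between these was -0.44 (limma interaction adjusted p = 0.907). The same holds for Npr2 between the lines, with a gap of 0.40 (adjusted p = 0.994). The dimmer Npr3 probe sets were marked likewise, with a gap of 0.44 in alpha-TM175 against NTG for 1 of them (adjusted p = 0.907) and of -0.33 between the lines for the other (adjusted p = 0.994). None of these gaps passed. Dixon's criterion at the 95% level, run on the 4 alpha-TM180 arrays only, marked no member probe set. The widest gap relative to the range, 0.786, was that of the lowest Corin array.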

How the results depend on the processing

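Of 123 member differences under alternatives other than leaving out 1 array, 114 kept their direction and their side of the threshold. Nppa in alpha-TM180 lost its call in single hearts only (log2 difference 3.36) and with the replicate block (3.43, adjusted p = 0.102), which left 0 member calls in either case. Otherwise the block changed no member call. With extract type in the model and alpha-TM175 array 1 left out, Nppa passed in alpha-TM175 (2.70), Npr1 (0.40) and Npr3 (0.57) passed in alpha-TM180, 1 and 3 member probe sets were called in the 2 lines, and Npr1 between the lines turned to -0.058. Npr3 in alpha-TM175 was -0.10 in single hearts only. Corin between the lines was -0.023 in single hearts only and -0.066 after renewed quantile normalization. Without the 2 arrays farthest in Nppa, which leaves a single alpha-TM175 array, the r of Corin turned to 0.102. The causes were not tested.

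Calls over all probe sets in alpha-TM175, alpha-TM180 and between the lines numbered 2, 114 and 0. They were 195, 453 and 6 with extract type, 14, 484 and 0 also without alpha-TM175 array 1, 1, 32 and 0 with the replicate block, and 44 in alpha-TM180 in single hearts only. Leaving out each array gave 1 to 2, 8 to 135 and 0 to 1 calls, and 0 to 1 member calls in each line against NTG. The log2 difference from NTG in alpha-TM175 then ran from 0.97 to 2.66 for Nppa, -0.18 to 0.89 for Nppb and -0.060 to 0.27 for Npr3. In alpha-TM180 it ran from 3.34 to 3.60 for Nppa and -0.0071 to 0.14 for Npr2, and between the lines from -0.0092 to 0.14 for Corin. The r with Nppa ran from 0.771 to 0.921 for Nppb, -0.0685 to 0.896 for Npr3 and -0.42 to 0.293 for Corin. The dim Npr1 and smaller Npr3 probe sets are limited by their low intensity.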
